A study of Homo sapiens with 24 samples.

Results

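RNA sequencing of OS-LM1 cells that carried the RNAi construct shPAX8-2 was compared with OS-LM1 cells that carried sgNTC18. OS-LM1 is a metastatic derivative of the clear cell renal cell carcinoma (ccRCC) line OS-RC2 and lacks functional VHL. The comparison rests on the 4 libraries titled OS-LM1 shPAX8-2 and the 4 titled OS-LM1 sgNTC18, 8 of the 24 libraries of the series, chosen by their labelled line and construct. The 24 libraries also include shPAX8-1 in OS-LM1 and all 3 constructs in a second metastatic ccRCC line, 786-M1A, with 4 libraries each. shPAX8-2 is a short hairpin RNA against PAX8, which the study expressed from doxycycline-inducible plasmids, and the duration of induction is not given in the labels. All cells were grown in RPMI medium with fetal bovine serum, and whether the replicates came from separate cultures is not stated in the labels, so p-values measure the spread between these libraries.

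The control sets a limit on everything that follows. By its name sgNTC18 is a non-targeting guide RNA of the CRISPR system, whereas the constructs set against it are hairpins. The sgNTC18 libraries also missed the control level that a supplementary table of the study implies, while the shPAX8 libraries met its PAX8-depleted level, so the control libraries may come from another experiment. A difference between experiments and the effect of shPAX8-2 cannot be told apart in the comparison with sgNTC18. The comparison of shPAX8-2 with shPAX8-1 is a difference of means between the hairpins. The sgNTC18 libraries contribute to it only through the filter, the scaling and the spread of the shared fit. A shift of equal size in both lines drops out of the comparison of the lines. A shift that differs between the lines stays in it and cannot be told apart there from a line-dependent effect of shPAX8-2.

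PAX8 is a paired-box transcription factor of the nephron lineage that stays expressed in renal carcinoma. Loss of VHL, the ubiquitin ligase subunit that marks hypoxia-inducible factors (HIF) for degradation, leaves HIF2A (gene EPAS1) active in ccRCC. Cyclin D1, encoded by CCND1, is a known HIF2A target in this cancer and drives entry into the cell cycle. A hairpin guide pairs with a messenger RNA and directs its cleavage, while pairing of its seed alone can lower other transcripts.

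The guide strands of both PAX8 hairpins are shown because they fix where each construct acts. They were taken from the oligonucleotide list of the study, are written 5′ to 3′, and carry the seed, bases 2 to 8, in capitals.
shPAX8-1 guide: tGTGAGTCaatgcttagtcggc
shPAX8-2 guide: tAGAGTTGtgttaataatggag
The target sites on the PAX8 transcript, read from hg38 on the minus strand, match with 0 mismatches, and capitals mark the match to the seed.
shPAX8-1 target site: gccgactaagcattGACTCACa
shPAX8-2 target site: ctccattattaacaCAACTCTa
The shPAX8-2 site lies at chr2:113218122-113218143, in the 3′ UTR in exon 12 of the canonical transcript, and is held by 7 of 10 protein-coding PAX8 transcripts of GENCODE v44. The shPAX8-1 site lies at chr2:113241690-113241711, in coding sequence in exon 7, and is held by 9 of the 10.

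The shPAX8-2 libraries held 14567945 to 52059375 expected counts and the sgNTC18 libraries 32918698 to 37086335, and no pair of replicates agreed within sampling noise. In a principal component analysis of the 12 OS-LM1 libraries, the first component (69% of the variance) set the sgNTC18 libraries, at scores of -95.2 to -90.0, apart from all 8 shPAX8 libraries, at 31.0 to 56.8. The second component (10.3%) separated shPAX8-2 (27.9 to 35.4) from shPAX8-1 (-31.6 to -26.4). Libraries also differed in base composition. The rank correlation across genes between GC content and a library's deviation from the mean was 0.251 to 0.376 in sgNTC18, and -0.209, -0.481, 0.277 and -0.108 in shPAX8-2 replicates 1 to 4. As a description, with genes cut into 5 equal bins, 52.3% of the bin lowest in GC were higher with shPAX8-2 and 20% of the bin highest in GC, so lists are given also after removal of every library's GC trend where this mattered. Longer transcripts showed the same lean, with 23.2% higher in the bin of shortest and 49.4% in that of longest transcripts.

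Genes of chromosome X stood apart. Of 465 tested genes there, 66.7% were lower and 9.03% higher with shPAX8-2, and their median log2 fold change was -0.79, against a range of medians from -0.39 (chromosome 16) to 0.24 (chromosome 7) over the other chromosomes. The X median was -0.79 also with the GC trend removed. It was -0.02 between shPAX8-2 and shPAX8-1, -0.74 for shPAX8-1 against sgNTC18, and 0.02 for shPAX8-2 against sgNTC18 in 786-M1A. Within each library, the median X gene stood 0.44 to 0.49 above its mean over the 12 libraries in all 4 sgNTC18 libraries and 0.22 to 0.27 below it in all 4 shPAX8-2 libraries (log2 scale). Over 247 windows of 10 Mb with at least 20 tested genes, 15 had a median below -0.5, 8 of them on X, and 24 had a median above 0.5. The highest was 1.05, at 150 to 160 Mb of chromosome 3, where 77.5% of 40 genes were higher and 2.5% lower. DNA content was not measured here, and the part of such regional shifts in the results for single genes was not tested, so X-linked genes are marked below. Genes in shifted windows of other chromosomes are marked only in part.

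**Figure D1:**
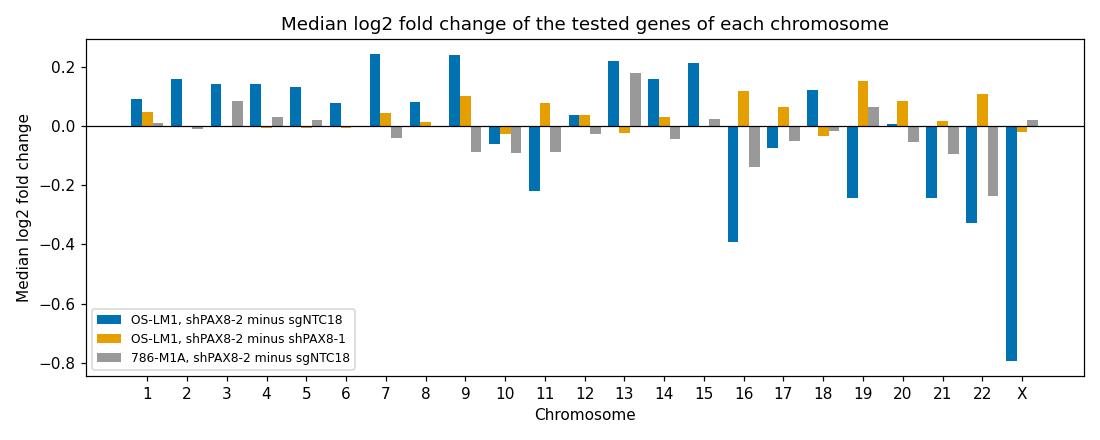
Bars give the median log2 fold change of the tested genes of each chromosome (x axis, 1 to 22 and X) for 3 contrasts. Chromosome X stands at -0.79 for shPAX8-2 against sgNTC18 in OS-LM1, at -0.02 between the constructs and at 0.02 in 786-M1A.

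PAX8 itself was measured at 75.7, 63.5, 94.0 and 77.9 CPM (counts scaled to the same TMM-corrected library total) in the shPAX8-2 libraries and at 253, 281, 236 and 250 in the sgNTC18 libraries. Every shPAX8-2 library lay below every control library, and the mean was 30.6% of the control mean. The log2 fold change was -1.71 ± 0.12 (SE) with an adjusted p of 4.32e-10 in edgeR's quasi-likelihood test, and the exact two-sided permutation test over the 4 and 4 libraries gave 0.0286, the smallest p it allows. The hairpins were not told apart in their PAX8 level, where shPAX8-2 minus shPAX8-1 came to 0.05 ± 0.12 (adjusted p = 0.797).

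Of 15049 genes tested, 10296 (68.4%) passed an adjusted p of 0.05 between shPAX8-2 and sgNTC18, 5168 higher (34.3%) and 5128 lower (34.1%), and the median log2 fold change over all genes was -0.01. In 62.3% of the genes the CPM of the 4 and 4 libraries did not overlap. A call was therefore common, and each group of genes below has to be read against these shares. They also varied with expression level. With genes cut into 5 equal bins by mean log2 CPM, 20.2% of the lowest bin and 51.5% of the highest were called higher. The share called lower was 29.8% in the lowest bin, 43.7% in the next and 25.5% in the highest. The shares over all genes are not matched to the expression level of any list. Among called genes, 1921 had a log2 fold change of at least 1 and 2159 of at most -1.

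Renal lineage factors moved in both directions. Of 18 tested members of a list of renal transcription factors, 7 rose and 8 fell, with a median of 0.24. PAX8 itself is on this list, among those that fell. The shares were 38.9% and 44.4%, against 34.3% and 34.1% over all genes. PAX2, a close relative of PAX8, overlapped between the groups, at 35.0 to 52.2 CPM with shPAX8-2 and 35.9 to 42.0 CPM with sgNTC18 (log2 fold change 0.11 ± 0.13, adjusted p = 0.44), and was called higher with the GC trend removed (0.45, adjusted p = 0.000114). HOXD10, a HOX factor of the posterior body axis, rose by 3.97 ± 0.14, and FOXC1 rose by 1.41 ± 0.11. IRX3, an Iroquois factor of tubule patterning, fell by 2.43 ± 0.13.

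**Figure D2:**
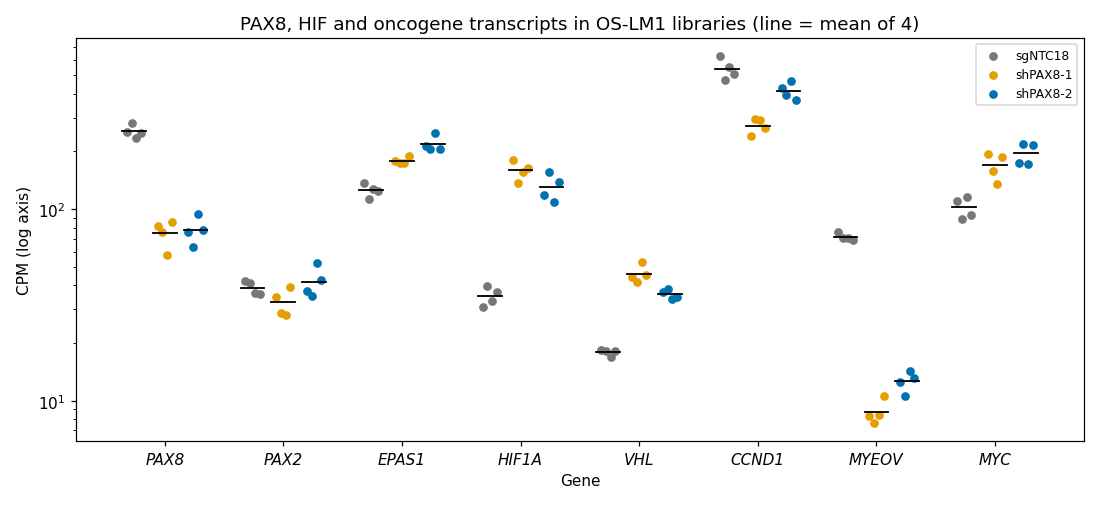
Each point is 1 OS-LM1 library, the y axis is CPM on a log scale, and lines mark the mean of 4 libraries for sgNTC18, shPAX8-1 and shPAX8-2. PAX8 sits between 63.5 and 94.0 with shPAX8-2 and between 236 and 281 with sgNTC18, while HIF1A, EPAS1, VHL and MYC sit above their control levels.

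The HIF subunit genes EPAS1 and HIF1A, both fixed by name, were higher, as was VHL. EPAS1 was at 212, 206, 248 and 206 CPM with shPAX8-2 and at 137, 112, 128 and 124 CPM with sgNTC18, a log2 fold change of 0.80 ± 0.09 (adjusted p = 1.08e-07). HIF1A was at 118, 156, 108 and 138 CPM against 30.9, 39.4, 33.3 and 36.8 CPM, and rose by 1.89 ± 0.12 (adjusted p = 4.85e-11). VHL transcript was at 37.0, 38.1, 33.8 and 34.7 CPM against 18.4, 18.2, 16.8 and 18.2 CPM, and rose by 1.00 ± 0.09 (adjusted p = 1.72e-08). In all 3 genes every shPAX8-2 library was above every control library. Of 9 tested subunits and regulators, 5 rose and 2 fell, and 1 fell with the GC trend removed. The shares were 55.6% and 22.2%, against 34.3% and 34.1% over all genes. EGLN3, a prolyl hydroxylase that is itself a HIF target, fell by 1.05 ± 0.09, while EGLN1 rose by 0.99 ± 0.11.

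The HIF target genes outside glycolysis were split. Of 31 tested, 15 rose and 11 fell (median 0.20), shares of 48.4% and 35.5%. ANGPTL4, a secreted lipase inhibitor, rose by 4.68 ± 0.18, CA9, the carbonic anhydrase used as a ccRCC marker, by 2.22 ± 0.12, and LOX, a collagen cross-linking oxidase, by 1.85 ± 0.10. DDIT4, an inhibitor of mTORC1 signalling, fell by 1.73 ± 0.12. NDUFA4L2, taken from the list of ccRCC markers and outside the naming rule, was singled out after its values were seen and was listed at only 0.57 to 1.16 TPM in the sgNTC18 libraries and at 31.6 to 43.5 TPM with shPAX8-2. Glycolysis leaned the other way, with 4 of 25 genes higher and 14 lower (median -0.33), or 7 higher and 11 lower with the GC trend removed (median -0.10). LDHA, lactate dehydrogenase A, was at 958, 1066, 921 and 1126 CPM against 2906, 2414, 2874 and 2733 CPM, a fall of 1.42 ± 0.09. PGK1, an X-linked glycolytic kinase, fell by 1.11 ± 0.08.

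At 11q13, where MYEOV and CCND1 lie next to each other, both genes were lower. Their window, 60 to 70 Mb of chromosome 11, was itself shifted, with 53.9% of 191 genes lower and 19.4% higher. Its median log2 fold change was -0.49, or -0.27 with the GC trend removed. The part of this shift in the values of the 2 genes was not tested. CCND1 was at 427, 392, 464 and 372 CPM with shPAX8-2 and at 627, 470, 549 and 504 CPM with sgNTC18, so that the groups were separated by little, with a log2 fold change of -0.38 ± 0.10 (adjusted p = 0.00275). MYEOV was at 12.5, 10.6, 14.3 and 13.1 CPM against 75.4, 70.4, 70.2 and 68.8 CPM, and fell by 2.49 ± 0.11 (adjusted p = 4.88e-13). MYC was higher, at 174, 218, 172 and 216 CPM against 110, 89.2, 115 and 93.3 CPM (0.94 ± 0.12, adjusted p = 1.15e-06).

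Cell cycle genes were the most uniform group among the lists. Of 43 S-phase genes 38 fell, with a median of -0.90, and of 54 G2/M genes 50 fell and 1 rose, with a median of -1.31. GINS2, a subunit of the replicative helicase, was at 15.7, 17.9, 12.2 and 18.1 CPM against 87.9, 75.2, 80.7 and 75.9 CPM (-2.33 ± 0.13). CDCA3, a trigger of mitotic entry, was at 27.1, 25.4, 26.8 and 30.1 CPM against 140, 142, 125 and 122 CPM (-2.27 ± 0.11). The libraries of each pair of groups were far apart for both genes. The loader and helicase genes CDC45 (-2.22 ± 0.13) and MCM5 (-1.91 ± 0.10), the polymerase gene POLA1 (X-linked, -2.20 ± 0.11), the mitotic kinase AURKB (-2.09 ± 0.11), PSRC1 (-2.11 ± 0.13) and FAM64A (-3.04 ± 0.11) followed. With the GC trend removed 40 S-phase and 53 G2/M genes fell.

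Among G1 regulators, 12 of 20 fell and 4 rose. The CDK4/6 inhibitor gene CDKN2C fell by 2.17 ± 0.11, and CDK2 (-1.08 ± 0.09) and the E2F factor genes E2F1 (-1.59 ± 0.13) and E2F8 (-1.69 ± 0.13) were lower too. Although MYC transcript rose, 29 of 48 genes listed as MYC targets fell and 12 rose (median -0.30), shares of 60.4% and 25%. BOP1 and GRWD1, which act in ribosome assembly, fell by 1.40 ± 0.15 and 1.02 ± 0.13, and CAD, the enzyme that starts pyrimidine synthesis, by 1.25 ± 0.14.

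Inflammatory genes were among those that rose most. IL1B, encoding interleukin-1 beta, was at 33.1, 40.1, 41.6 and 39.6 CPM with shPAX8-2 and between 0.188 and 0.326 CPM with sgNTC18, a rise of 7.19 ± 0.17 on the log2 scale (adjusted p = 6.56e-17). The chemokine gene CCL2 was at 811, 1220, 837 and 1050 CPM against 33.9, 25.6, 38.6 and 32.2 CPM (4.91 ± 0.19). CXCL8, encoding the neutrophil chemokine interleukin-8, was at 742, 954, 716 and 659 CPM against 27.4, 18.9, 32.5 and 30.5 CPM (4.81 ± 0.20). Of 35 tested cytokine, chemokine and NF-kB feedback genes, 23 rose and 8 fell (median 0.98). IL11, a member of the interleukin-6 family, rose by 2.93 ± 0.15. The T-cell marker CD3E was at 0 and the general leukocyte marker PTPRC was at most 0.26 TPM in all 8 libraries, whereas the monocyte marker CD14 was at 1.90 to 2.47 TPM with shPAX8-2 and at 0.21 to 0.58 TPM with sgNTC18. The summed TPM of the 6 leukocyte markers was 195 to 237 with shPAX8-2 and 75.2 to 88.0 with sgNTC18, nearly all of it CD68 (189 to 231 and 73.2 to 85.2), which epithelial cells also express. The part of these markers in the result was not tested.

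Immediate-early genes rose in 21 of 26 cases and fell in 3 (median 1.35). CTGF, a secreted matricellular protein and YAP target, was at 2961, 3061, 2662 and 2993 CPM against 47.8, 44.3, 57.5 and 51.5 CPM (5.86 ± 0.12, adjusted p = 7.33e-18). EGR1 rose by 3.19 ± 0.32, IER3 by 3.23 ± 0.09, and SPRY4, a feedback inhibitor of ERK signalling, by 3.39 ± 0.12. Complement and acute-phase genes rose in 13 of 23 cases and fell in 5. The protease inhibitors A2M (4.49 ± 0.12) and SERPING1 (4.20 ± 0.15) and complement factor I, CFI (3.17 ± 0.14), were higher, whereas the fibrinogen beta chain gene FGB fell by 3.21 ± 0.11.

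Interferon-stimulated genes were mixed, with 29 of 52 lower and 13 higher (median -0.67). IFIT1, which binds viral RNA ends, was at 5.0, 3.87, 3.58 and 5.06 CPM with shPAX8-2 and at 12.7, 18.6, 15.1 and 14.7 CPM with sgNTC18 (-1.82 ± 0.15), and XAF1 fell by 1.76 ± 0.14. The guanylate-binding protein genes went the other way, and GBP1 was at 134, 141, 133 and 133 CPM against 27.8, 25.2, 30.4 and 25.0 CPM (2.32 ± 0.09), with GBP2 3.07 ± 0.10 higher. Class I antigen presentation was lower as a group, in 13 of 16 genes, with 1 higher (median -0.80). HLA-B was at 78.6, 76.3, 87.9 and 90.2 CPM against 253, 219, 231 and 220 CPM (-1.47 ± 0.09), and HLA-C and the immunoproteasome subunit genes PSMB9 and PSMB10 fell by 1.39 ± 0.13, 1.54 ± 0.10 and 1.78 ± 0.13. Reads of the near-identical HLA genes, like those of paralogous GBP genes, can be divided between loci by the counting, so their single values are less certain.

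Genes of epithelial-to-mesenchymal transition rose in 16 of 26 cases and fell in 6 (median 0.77). The repressors of cadherin transcription SNAI2 and SNAI1 rose by 2.79 ± 0.14 and 2.70 ± 0.20, the matrix protein gene TNC by 2.54 ± 0.09 and the receptor gene TGFBR1 by 2.18 ± 0.14. The mesenchymal intermediate filament gene VIM, a member of the same list outside the naming rule and singled out after its values were seen, fell by 1.26 ± 0.10, from 6853 to 9345 TPM with sgNTC18 to 3178 to 3766 TPM with shPAX8-2. The epithelial keratin gene KRT18 rose by 1.34 ± 0.08, from 243 to 278 TPM to 619 to 658 TPM. It belongs to the list of cadherins, claudins and keratins, lies outside the naming rule and was singled out after its values were seen. KRT8, a keratin gene of that list, overlapped, at 217 to 263 TPM with sgNTC18 and 215 to 367 TPM with shPAX8-2. Collagens and laminins rose in 16 of 30 cases and fell in 11. COL1A1, the main fibrillar collagen, was at 167, 99.0, 198 and 189 CPM against 16, 19.5, 13.4 and 14.7 CPM (3.36 ± 0.19). LAMA4 rose by 3.0 ± 0.09, whereas LAMA3, a laminin chain of epithelial basement membrane, fell by 1.94 ± 0.11. The summed TPM of the 5 fibroblast markers was 30.7 to 60.6 with shPAX8-2 and 4.78 to 6.19 with sgNTC18, nearly all of it COL1A1 itself (28.6 to 58.3 and 4.06 to 5.70). COL3A1 was at 0.75 to 1.07 TPM against 0 to 0.03 TPM, and PDGFRB, DCN and LUM were each below 1 TPM in all 8 libraries. The part of these markers in the result was not tested. Matrix proteases and lysyl oxidases rose in 17 of 28 cases and fell in 7. The stromelysin gene MMP3 rose from 0.435 to 0.856 CPM with sgNTC18 to 24.6 to 29.7 CPM with shPAX8-2 (5.43 ± 0.14), ADAM19 rose by 2.47 ± 0.12, and ADAMTS1 fell by 2.41 ± 0.15.

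Adhesion molecules changed individually. CLDN2, the X-linked gene of a cation channel-forming claudin of the proximal tubule, was at 15.4, 13.4, 16.3 and 14 CPM against 423, 393, 377 and 384 CPM (-4.73 ± 0.10, adjusted p = 7.33e-18). CDH6, the kidney cadherin, was at 44.3, 52.2, 38.3 and 44.1 CPM against 280, 321, 305 and 335 CPM (-2.80 ± 0.10, adjusted p = 1.24e-14). CDH11, a mesenchymal cadherin, rose by 2.74 ± 0.10 and CLDN12 by 1.98 ± 0.10. Of 29 tested cadherins, claudins, keratins and junction genes, 11 rose and 9 fell, close to the share over all genes. With the GC trend removed 14 rose and 7 fell. The desmosome gene DSP, outside the naming rule and singled out after its values were seen, was at 15.5 CPM on average with sgNTC18 and at 0.0322 CPM on average with shPAX8-2, with 0 counts in 2 of the 4 libraries. Of 14 tested integrins 6 were higher and 5 lower, or 42.9% and 35.7%, against 34.3% and 34.1% over all genes. Log2 fold changes were 2.29 ± 0.11 for ITGA1, 1.49 ± 0.10 for ITGA5 and -1.42 ± 0.14 for ITGB6.

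**Figure D3:**
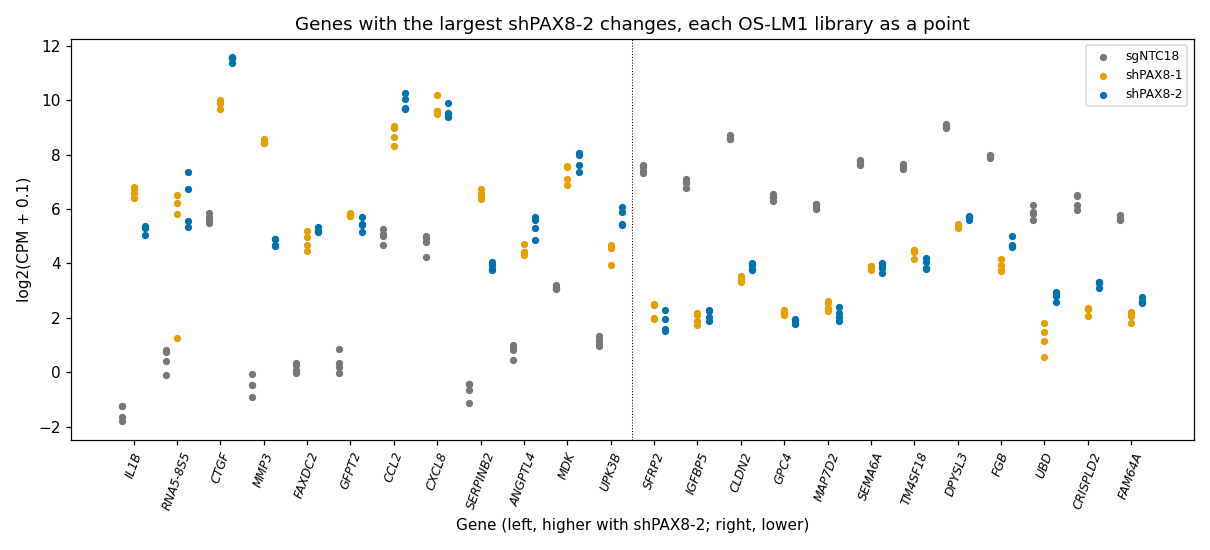
Each point is 1 OS-LM1 library, the y axis is log2(CPM + 0.1), and the 12 genes that rose most stand left of the 12 that fell most by the naming rule. The shPAX8-2 libraries lie apart from the sgNTC18 libraries in all 24 genes, with IL1B 7.19 higher and SFRP2 at a fitted difference of -5.66 on the log2 scale.

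Among secreted signalling proteins, SFRP2 and IGFBP5 were among the genes that fell most. SFRP2, a secreted Wnt antagonist, was at 2.78, 4.76, 2.95 and 3.78 CPM against 170, 159, 197 and 188 CPM (-5.66 ± 0.16). IGFBP5, an insulin-like growth factor binding protein, was at 4.80, 3.98, 4.73 and 3.59 CPM against 123, 110, 137 and 127 CPM (-4.86 ± 0.13). Of 39 receptor tyrosine kinase ligands and receptors 15 rose and 14 fell (median 0.16), close to the shares over all genes. With the GC trend removed 20 rose and 14 fell (median 0.43), against 34.5% and 34.4% over all genes. FGF2 was at 337, 395, 296 and 285 CPM against 39.9, 46.9, 46.6 and 45.9 CPM (2.87 ± 0.11), whereas its receptor gene FGFR1 was at 66.2, 61.8, 79.8 and 67.1 CPM against 511, 445, 449 and 415 CPM (-2.73 ± 0.10). PDGFA rose by 2.50 ± 0.11. Of 15 Wnt modulators and feedback genes 8 rose and 4 fell, with WNT5A, a ligand of the non-canonical pathway, 3.0 ± 0.10 higher and SFRP4 3.53 ± 0.14 higher.

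The remaining genes that rose most were SERPINB2 (4.76 ± 0.16), MDK (4.67 ± 0.18), a heparin-binding growth factor, GFPT2 (5.16 ± 0.16), an enzyme of hexosamine synthesis, FAXDC2 (5.17 ± 0.17) and UPK3B (4.64 ± 0.19). The 5.8S ribosomal RNA entry RNA5-8S5 was also among them, at 47.4, 106, 164 and 40.8 CPM against 0.831 to 1.69 CPM (6.08 ± 1.07). Its shPAX8-2 libraries differed from each other several-fold. The remaining genes that fell most were the X-linked GPC4 (-4.59 ± 0.11), a heparan sulfate proteoglycan, and MAP7D2 (-4.05 ± 0.12), together with SEMA6A (-3.86 ± 0.10), TM4SF18 (-3.60 ± 0.11), DPYSL3 (-3.35 ± 0.08), UBD (-3.08 ± 0.17) and CRISPLD2 (-3.04 ± 0.13). CRISPLD2 lies at 80 to 90 Mb of chromosome 16, where 70.3% of 74 genes were lower and 4.05% higher (median -0.80).

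Tubule transporters, enzymes and adhesion genes fell in 14 of 27 cases and rose in 11 (median -0.36). MME, the membrane endopeptidase neprilysin of the brush border, was at 123, 146, 104 and 118 CPM against 11.8, 12.1, 13.3 and 13.2 CPM (3.28 ± 0.11), and lies in the chromosome 3 window with the highest median. ANPEP, another brush-border peptidase, rose by 2.48 ± 0.12. SLC3A1, the heavy subunit of the cystine transporter, fell by 1.55 ± 0.10. Lipid storage genes fell in 13 of 22 cases and rose in 6 (median -0.52), among them the fatty acid binding protein gene FABP5 (-1.58 ± 0.15), MGLL (-0.97 ± 0.12) and GPAT3 (-1.10 ± 0.13).

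Cholesterol synthesis and uptake genes rose in 15 of 27 cases and fell in 8. STARD4, a sterol transfer protein gene, rose by 2.39 ± 0.13 and INSIG1, a brake on sterol synthesis, by 1.79 ± 0.09, while the X-linked EBP fell by 1.67 ± 0.08. Genes of the p53 pathway rose in 16 of 28 cases and fell in 5 (median 0.45), led by TP53INP1 (1.96 ± 0.10), ZMAT3 (1.84 ± 0.11) and SUSD6 (1.56 ± 0.09). Transcripts of cytosolic ribosomal proteins, which share sequence with many processed pseudogenes, rose in 48 of 76 cases and fell in 11 (median 0.43), from 1.90 ± 0.20 for RPL26 to -1.35 ± 0.09 for FAU. Nuclear genes of oxidative phosphorylation fell in 26 of 61 cases and rose in 10 (median -0.16), with COX8A at -1.31 ± 0.16 and NDUFA5 at 1.35 ± 0.19.

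Stress programmes showed no single direction. Shares higher and lower were 38.7% and 45.2% for the ATF4 list, 47.8% and 34.8% for chaperones and 40.7% and 37% for NRF2 targets. Over all genes they were 34.3% and 34.1%. ATF4 response genes and tRNA synthetases were higher in 12 of 31 cases and lower in 14, with ATF3 at 2.63 ± 0.12 and DDIT3, the gene of CHOP, at -1.16 ± 0.13. Chaperones and unfolded protein response genes were higher in 11 of 23 and lower in 8, with ERN1 at 1.38 ± 0.12 and HYOU1 at -1.34 ± 0.09. NRF2 targets were higher in 11 of 27 and lower in 10, with the gene of NRF2 itself, NFE2L2, at 2.13 ± 0.14 and the reductase gene AKR1B10 at -2.05 ± 0.12. The list of ccRCC tumour suppressors, which as written also holds the growth-promoting kinase genes PIK3CA and MTOR, was higher in 9 of 15 and lower in 6, or in 7 and 3 with the GC trend removed, with PIK3CA at 1.53 ± 0.12 and the X-linked KDM5C at -0.93 ± 0.11. In the RNA interference machinery, 7 of 14 genes were higher and 5 lower, with DICER1 at 0.80 ± 0.09 and the exportin gene XPO5 at -0.58 ± 0.09. Replication-dependent histones, whose transcripts mostly lack a poly(A) tail, were higher in 6 of 19 and lower in 7, with HIST1H2BK at 2.93 ± 0.16.

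**Figure D4:**
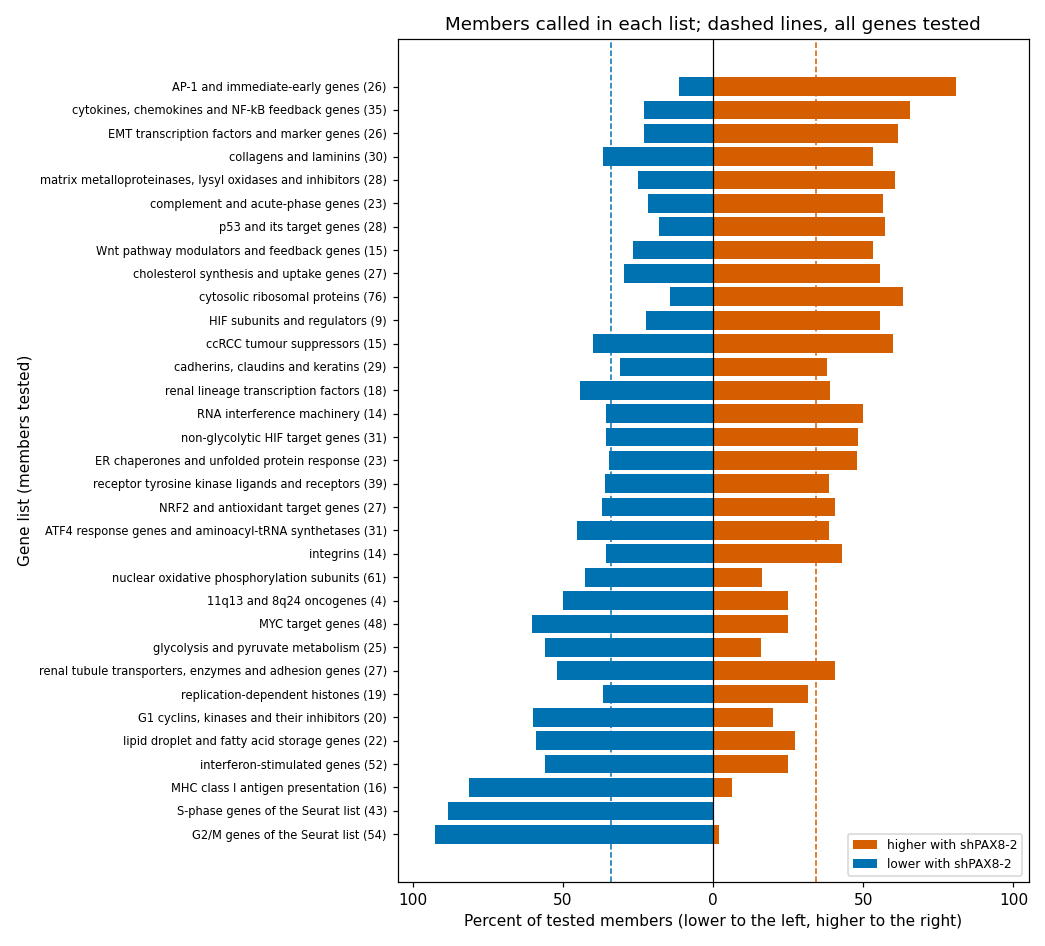
Bars give the percent of tested members of each list that were called higher (right) or lower (left) with shPAX8-2, with the number tested in brackets. Dashed lines mark 34.3% higher and 34.1% lower over all 15049 genes, and the bars of the G2/M genes (50 of 54 lower) and immediate-early genes (21 of 26 higher) reach well past them.

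The comparison of shPAX8-2 with shPAX8-1 asked where the constructs differ. Here 4378 of 15049 genes (29.1%) were called, 2519 higher with shPAX8-2 (16.7%) and 1859 lower (12.4%), and 268 and 498 of them had a log2 difference of at least 1 or at most -1. Cell cycle transcripts were higher with shPAX8-2 than with shPAX8-1, in 34 of 43 S-phase and 33 of 54 G2/M genes, with 1 lower in each list and medians of 0.58 and 0.37. GINS2 was at 6.23, 7.99, 8.64 and 8.34 CPM with shPAX8-1, below each of its shPAX8-2 values and further below the control (1.02 ± 0.13 higher with shPAX8-2). CCND1 was 0.60 ± 0.10 higher with shPAX8-2 than with shPAX8-1 (adjusted p = 0.000182), and MYEOV 0.53 ± 0.12 (adjusted p = 0.0018).

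Against shPAX8-1, 29 of 52 interferon-stimulated genes were lower with shPAX8-2 and 2 were higher (median -0.53). IFIT1 was at 14.6, 13.3, 15.8 and 13.5 CPM with shPAX8-1, within the range of the sgNTC18 libraries, and 1.72 ± 0.15 lower with shPAX8-2 (log2 difference -1.72, adjusted p = 6.54e-08). OAS2, which makes the second messenger of the RNase L pathway, was at 14.1, 13.7, 13.2 and 12.2 CPM with shPAX8-2, at 37.1, 36.3, 36.5 and 40.1 CPM with shPAX8-1, and at 31.0, 40.5, 40.0 and 30.8 CPM with sgNTC18. For both genes shPAX8-2 alone of the 3 constructs lay low in OS-LM1.

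The genes farthest apart between the hairpins were MMP1, MMP3, LINC01279, SERPINB2 and ADAM12 on the lower side. The collagenase gene MMP1 was at 2.92, 3.81, 3.43 and 2.97 CPM with shPAX8-2 and at 106, 86.4, 133 and 89.6 CPM with shPAX8-1 (log2 difference -4.98 ± 0.16, adjusted p = 3.49e-14). Its sgNTC18 libraries, at 2.15, 2.04, 2.65 and 2.58 CPM, were close to those with shPAX8-2. MMP3 differed by -3.71 and SERPINB2 by -2.66. On the higher side, the potassium channel gene KCNK3 was at 49.4, 45.3, 70.7 and 56.0 CPM with shPAX8-2 and at 12, 10.5, 11.6 and 12.7 CPM with shPAX8-1 (2.25 ± 0.13, adjusted p = 4.98e-10). EDN1, the gene of the vasoconstrictor endothelin-1, was at 63.6, 66.1, 65.2 and 58.1 CPM against 14.8, 16.9, 16 and 15.6 CPM (2.0 ± 0.12, adjusted p = 4.13e-10), and IFFO2, SAA1 and FAM84B followed with 2.00, 1.88 and 1.80. For KCNK3 and EDN1 the shPAX8-1 libraries overlapped the control libraries or lay below them, and the shPAX8-2 libraries stood above both.

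Seed matches were counted in the 3′ UTRs of the canonical transcripts. The match of the shPAX8-2 seed, CAACTCT, was present in 11.5% of the 3′ UTRs of tested genes (1433 genes, median length 3336 bases) and absent from 11030 (median length 1170 bases). Of genes with the match, 14.9% were lower with shPAX8-2 than in the other hairpin's libraries and 18.1% higher, against 11% and 19% of genes without it, and their median differences were 0.03 and 0.06. The match of the shPAX8-1 seed, GACTCAC, was present in 945 genes (7.58%), which were higher with shPAX8-2 in 34.2% of cases and lower in 8.04%, against 17.7% and 11.8% without it (medians 0.17 and 0.04). Against sgNTC18, genes with the shPAX8-2 match were lower in 29% and higher in 43.5% of cases, and those without it in 35% and 36.2%. These shares are descriptions without a test, and genes with a match have longer 3′ UTRs.

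The comparison of the lines asked whether shPAX8-2 changed the same genes in 786-M1A. In 786-M1A itself, 62.4% of genes were called, 30.8% higher and 31.5% lower. The change differed between the lines in 8326 of 15665 genes (53.2%), with 4302 higher in OS-LM1 (27.5%) and 4024 lower (25.7%). Of 14817 genes tested in both lines, 2334 were called higher in both, 45.7% of those higher in OS-LM1 and 52.7% of those higher in 786-M1A. Another 2668 were called lower in both, 52.4% and 55.1% of the respective genes, while 940 were higher in OS-LM1 and lower in 786-M1A and 790 the reverse. The comparisons share no library, but in each line sgNTC18 stands against the hairpin. A difference between experiments that is not equal in both lines remains in these counts. The X median, for example, was -0.79 in OS-LM1 and 0.02 in 786-M1A.

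PAX8 was lowered more in 786-M1A, where it was at 41.4, 45.5, 42.6 and 40.0 CPM with shPAX8-2 and at 292, 393, 360 and 319 CPM with sgNTC18, and the difference of the log2 changes was 1.30 ± 0.20 (adjusted p = 4.98e-06). CCND1 rose in 786-M1A by 0.39 ± 0.12 and fell in OS-LM1, a difference of -0.77 ± 0.17 (adjusted p = 0.000473). CDH6 and CLDN2 fell in both lines, and their differences of 0.15 ± 0.15 and -0.25 ± 0.31 were not called.

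Many immune genes differed between the lines. Interferon-stimulated genes were lower in 50 of 53 cases in 786-M1A (median -3.11), and in 46 of 53 the fall was smaller, or the gene higher, in OS-LM1 by the test of the difference. OAS2 was at 0.114, 0.108, 0.166 and 0.267 CPM with shPAX8-2 in 786-M1A, a few counts in each library, against 322, 273, 278 and 249 CPM with sgNTC18, so the fitted change there (-10.74) depends on the prior count. GBP1 rose in OS-LM1 and fell by 2.62 ± 0.11 in 786-M1A, and PTGES, the prostaglandin E synthase gene, rose by 3.01 ± 0.12 in OS-LM1 and fell by 3.32 ± 0.14 in 786-M1A. CCL2 and CXCL8, among the genes that rose most in OS-LM1, were at 8.15 to 14.2 and 4.93 to 6.77 CPM with shPAX8-2 in 786-M1A, below their controls of 17.2 to 20.2 and 8.07 to 11.5 CPM. By the same test, the log2 change of cytokine and NF-kB genes was higher in OS-LM1 than in 786-M1A in 25 of 35 cases. The change of p53 pathway genes was higher in OS-LM1 in 19 of 28 cases, and that of G2/M genes lower in 37 of 54 and higher in 3. The part of the regional shifts described above in these counts was not tested.

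Of the 5 genes that the naming rule gave for negative differences, which had to be called in OS-LM1 with a mean of at least 3 log2 CPM over the 24 libraries, 3 are X-linked. IGFBP5, below that mean and singled out after its values were seen, had a difference of -5.11 ± 0.53. In 786-M1A it was near the floor, at means of 0.39 CPM with shPAX8-2 and 0.30 CPM with sgNTC18. Its difference is thus mainly the fall in OS-LM1. GPC4 was at 64.1, 56.8, 59.8 and 51.0 CPM with shPAX8-2 and at 40.0, 34.1, 35.6 and 32.1 CPM with sgNTC18 in 786-M1A, while it fell by 4.59 in OS-LM1 (difference -5.30 ± 0.15). MAP7D2 changed by 0.17 ± 0.12 in 786-M1A (adjusted p = 0.246), and the potassium channel gene KCND1 rose by 3.75 ± 0.23 there while its OS-LM1 groups overlapped (-0.32 ± 0.13, not called with the GC trend removed). The autosomal genes were EDIL3, a secreted integrin ligand (-2.28 ± 0.11 in OS-LM1, 1.89 ± 0.13 in 786-M1A), and NR1D1, a repressor of the circadian clock (-2.38 ± 0.15 and 1.79 ± 0.17). SFRP2 and A2M had 0 counts in all 8 libraries of 786-M1A, so no comparison of their change was possible.

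**Figure D5:**
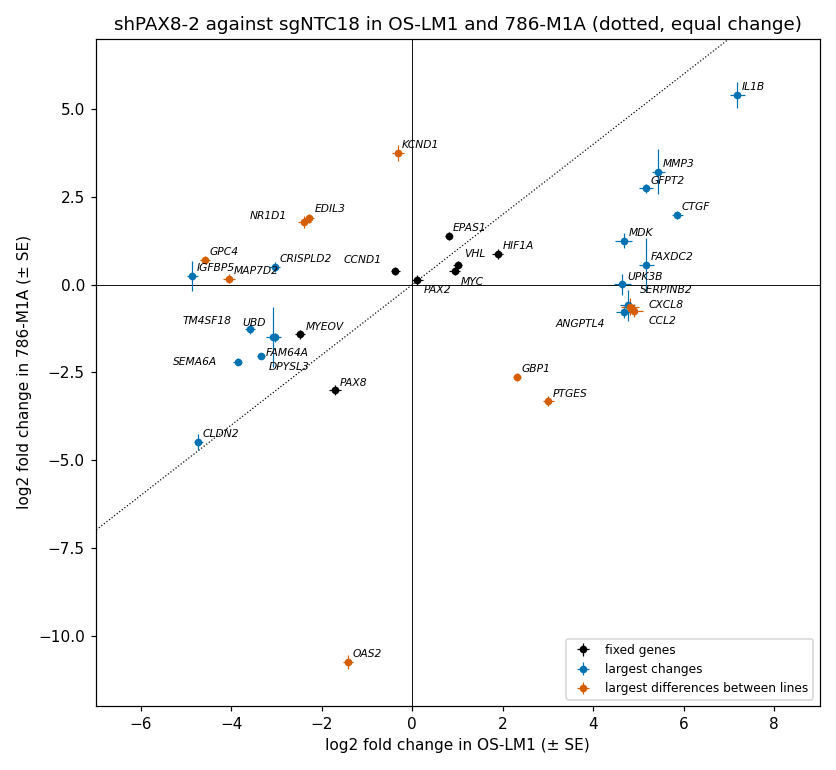
Each point is 1 named gene, with the log2 fold change of shPAX8-2 against sgNTC18 in OS-LM1 on the x axis, the same in 786-M1A on the y axis, and standard errors as bars; the dotted line marks equal change. PAX8, CLDN2 and IL1B moved the same way in both lines, CCL2 and CXCL8 rose in OS-LM1 and fell in 786-M1A, and OAS2 lies at -10.74 in 786-M1A. SFRP2, FGB and RNA5-8S5 are not drawn.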

How the data were processed

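The labels describe poly(A) libraries from a stranded KAPA kit, whereas the methods of the study name Lexogen kits. Per the labels and methods, the authors mapped reads to hg38 with Bowtie2 and RSEM and deposited expected counts and TPM for 26475 genes per library, with no normalization of the expected counts. The versions and the annotation release are not given in the sources used here.

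After rounding, they were fitted with edgeR 4.0.16 in R 4.3.3 (filterByExpr, TMM, robust quasi-likelihood test, Benjamini-Hochberg adjustment over all genes tested, threshold 0.05). The 12 OS-LM1 libraries were fitted together by group, without covariates, and the comparison of the lines used all 24. Depth was 14567945 to 52059375 expected counts in the 8 libraries. Their replicates differed by more than counting error over all genes (chi-square per gene 10.4 to 89.5). CPM uses TMM-scaled library sizes. The standard error is the size of the log2 fold change divided by the square root of F. TPM served only for cell type markers. The fitting code was tested on simulated data. Gene positions are from RefSeq GRCh38.p14, found for 13667 tested genes, and GC content from GENCODE v44.

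Beside fixed genes (PAX8, PAX2, EPAS1, HIF1A, VHL, CCND1, MYEOV, MYC), named genes were the 12 that rose and the 12 that fell most, up to 4 per list and 5 each way in the contrasts of constructs and lines, all called and with a mean log2 CPM of at least 3. Antisense, readthrough, LOC and pseudogene entries were left out, and some genes the rule allowed are not described or are not reported here. The comparison, members and lists were chosen with earlier results of these data known. Alternatives were DESeq2 1.42.0, DESeq2 size factors, no filter, stricter thresholds, left-out replicates, a replicate block, removal of each library's GC trend, thinned depth and the 8 libraries alone. Leaving out chromosome X was added after seeing the data.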

Additional observations from a re-analysis of the deposited data

Results flagged for a closer look

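Single libraries stood far from the other 3 of their group, by Dixon's criterion at 95%, in 7 of 92 groups tested over 46 genes, against 4.6 expected by chance. With shPAX8-2 these were CRISPLD2 in replicate 1 (8.41 CPM), EPAS1 in replicate 3 (248 CPM), FGB in replicate 2 (32.4 CPM) and GBP1 in replicate 2 (141 CPM). With sgNTC18 they were LINC01279 in replicate 4 (1.90 CPM), NR1D1 in replicate 1 (17.0 CPM) and VHL in replicate 3 (16.8 CPM).

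The change with shPAX8-2 differed between the lines, by the interaction term of edgeR over all 24 libraries, in 17 genes of those looked at here, which were the genes fixed by name and the 10 chosen for their difference between the lines. The 10 had to pass this test to be chosen, so their part of the count was fixed in advance. The other named genes were not listed in this way. Given as the OS-LM1 minus the 786-M1A log2 fold change, the differences were 1.30 for PAX8, -0.593 for EPAS1, 1.01 for HIF1A and 0.426 for VHL. They were -0.774 for CCND1, -1.07 for MYEOV and 0.538 for MYC. The genes chosen for the largest differences gave 9.32 for OAS2, 6.32 for PTGES, 5.64 for CCL2, 5.43 for CXCL8 and 4.93 for GBP1. On the other side stood GPC4 at -5.30, MAP7D2 at -4.21, EDIL3 at -4.17, NR1D1 at -4.17 and KCND1 at -4.08. The value for OAS2 rests on a few counts per library with shPAX8-2 in 786-M1A, and GPC4, MAP7D2 and KCND1 lie on chromosome X.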

How the results depend on the processing

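The count of genes changed with shPAX8-2 stayed between 7270 (absolute log2 fold change over 0.58) and 10616 (no filter beyond 1 count), and PAX8 stayed lower under every alternative run, at -1.45 with the GC trend removed. DESeq2 called 10316 genes. Between shPAX8-2 and shPAX8-1, 2703 genes (1548 higher, 1155 lower) passed an adjusted p of 0.01 and 1978 (960 higher, 1018 lower) exceeded 0.58, fewer by construction. Leaving out single libraries gave 9770 to 10285 genes against sgNTC18, -1.82 to -1.62 for PAX8, 3558 to 4885 genes between the hairpins and 7795 to 8288 between the lines. Without chromosome X, 9944 genes were called. MMP1 against sgNTC18 (0.48, adjusted p = 0.0167 with edgeR) lost its call with the GC trend removed (0.34, adjusted p = 0.0575), with thinned libraries and without shPAX8-2 replicate 3 or sgNTC18 replicate 2. The cause was not tested. With the replicate block, 9846 genes were called and PAX8 gave -1.71, and no call of a named gene changed. Same-numbered libraries did not deviate together (mean r -0.0943 over 4 pairs, against 0.0311 over 12 other pairs). So few pairs cannot show whether equal numbers share a batch, which the labels do not state. Of 66 counts of list members, each in 1 direction, 26 moved by more than 1.5 times with the limit of 0.58, 4 with an adjusted p of 0.01, 3 with the GC trend removed, 1 with no filter and 1 with the replicate block (HIF subunits and regulators lower, 2 to 1). Leaving out single libraries moved 5 such values: the HIF count to 1 without sgNTC18 replicate 2 or shPAX8-2 replicate 1 or 4, NRF2 targets higher from 11 to 7 without sgNTC18 replicate 2, and MHC class I genes higher from 1 to 2 without shPAX8-2 replicate 3. Thinned to the smallest total, 9602 genes were called. The doubt about the origin of the sgNTC18 libraries is not removed by any of these alternatives.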
